A study of Gallus gallus with 4 samples.

Results

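The genes described here are the feedback inhibitors SOCS1, SOCS2, SOCS3 and CISH, the kinases JAK1 and JAK2 and the transcription factors STAT3 and STAT5B, which belong to cytokine signalling through JAK and STAT proteins. They were chosen by name: every probe set whose platform gene symbol is one of these 8 was taken. That gave 13 probe sets of 7 genes, out of 13009 genes with a probe set of their own on the array. No probe set carries the symbol STAT5B. The chicken gene that the RefSeq gene table lists under the symbol STAT5A has STAT5B among its synonyms, and its only probe set is described beside the others as STAT5A.

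The tested cells were PR9692 cells, a line derived from a chicken sarcoma (strain CC.R1), stably transfected with an anti-HOPX short hairpin RNA (shRNA), and the comparison cells were the same line stably transfected with a control shRNA. HOPX codes for a small homeodomain protein. The design text of the series calls the anti-HOPX form non-metastatic and the control form metastatic, and the comparison addresses differences in transcript levels between those forms. Each form was measured on 2 Affymetrix chicken arrays called biological replicates. Whether they came from separate cultures, and whether a form is 1 clone or a pool, is not given in the sources used here, so the p-values measure the spread between these arrays. All cells were grown in medium with fetal calf serum and chicken serum, and the growth protocol names no added cytokine.

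Values are log2 expression values on the scale deposited by the authors, and differences are anti-HOPX minus control. Over the 14851 probe sets with a mean of at least 4, the array medians ran from 7.76 to 7.79. The anti-HOPX arrays differed from each other by a median of 0.25 and the control arrays by 0.16. Precision is limited by the number of arrays. HOPX itself does not check the labels. The brighter of its probe sets stood at 3.21 and 3.54 on the anti-HOPX arrays and 3.23 and 3.72 on the control arrays, under the mean of 4 required for testing. Of the mesenchymal markers 10 of 12 lay at 4 or more, vimentin (VIM) and fibronectin (FN1) among them. The collagen COL1A1 was higher in anti-HOPX cells by 1.73 (limma adjusted p = 0.0020). The collagen COL1A2 went the other way, with 2.79 and 2.39 on the anti-HOPX arrays and 4.16 and 5.36 on the control arrays. Its mean lay under 4, so it was not tested. All 6 epithelial and all 6 skeletal muscle markers lay under 4. Of 11 leukocyte markers 8 lay under 4, among them the pan-leukocyte phosphatase PTPRC and the T cell marker CD3E, while SPI1, CD74 and LAPTM5 lay above. The 11 values summed to a level of 46.6 and 46.4 on the anti-HOPX arrays and 46.5 and 45.9 on the control arrays. CD74 was higher by 1.45 (limma adjusted p = 0.025) and LAPTM5 fell by 1.71 (limma adjusted p = 0.033) in anti-HOPX cells, and these cancel in the sum of log2 values, which therefore says little about leukocyte content. Of 6 endothelial markers 4 lay under 4, and CLDN5 differed by -0.90 with no overlap between forms (limma adjusted p = 0.13). The part of these markers in the results below was not tested.

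In JAK-STAT signalling, a cytokine or hormone brings its receptor chains together, the JAK kinases bound to them phosphorylate the receptor and the STAT proteins, and phosphorylated STATs enter the nucleus and switch on genes. Among those genes are the SOCS proteins and CISH. In mammals these bind phosphorylated receptors or JAKs through an SH2 domain, compete with STATs, and recruit a ubiquitin ligase through the SOCS box. Their transcript levels are therefore often read as a record of recent cytokine signalling, though phosphorylation, the step that activates JAKs and STATs, is not seen by an expression array.

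SOCS2 was lower in anti-HOPX cells (limma adjusted p = 0.0059). SOCS3 was higher, at the edge of the threshold (limma adjusted p = 0.048), and no probe set of the kinases or of STAT3 passed the test. CISH showed the second largest difference of the group, upward, and SOCS1 a smaller one, also upward, but neither passed the test. Of the 13 probe sets, 10 passed the filter on low values and were tested, 1 was higher and 1 lower at an adjusted p under 0.05, and 8 did not pass. Over all tested probe sets 7.66% were called by the same rule, 3.12% as higher and 4.54% as lower. With 10 probe sets tested, this share and the 2 calls cannot be read against each other closely. The median of the absolute differences was 0.34 over these 10 probe sets and 0.27 over all tested ones.

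**Figure D1:**
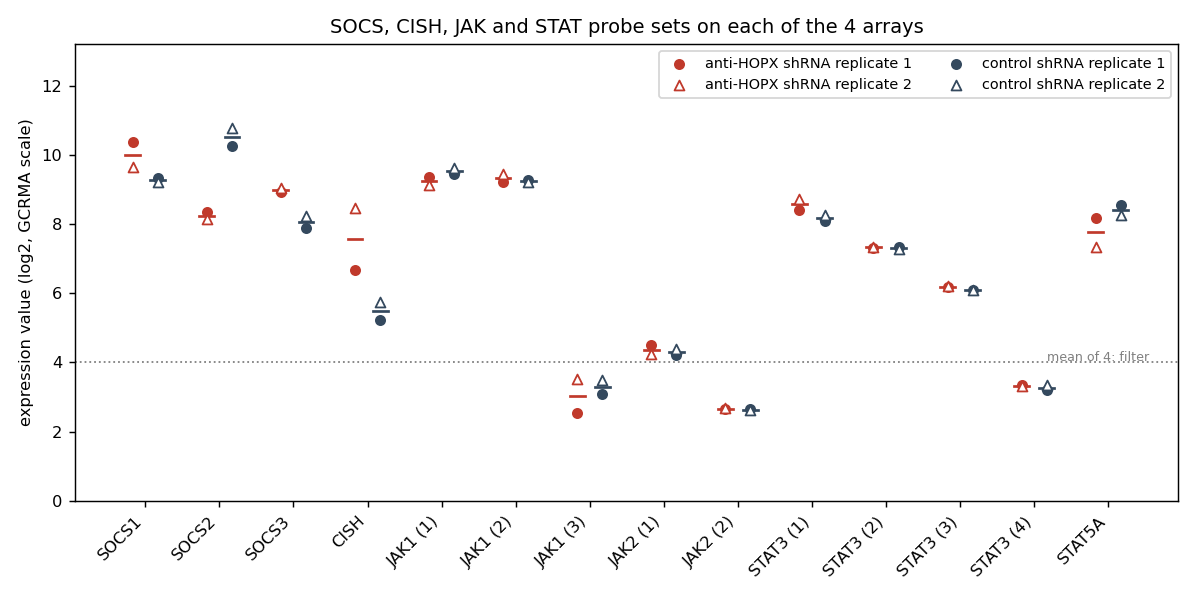
Log2 expression value of each probe set (vertical axis) on the anti-HOPX arrays (red) and the control arrays (dark blue); circles are replicate 1, open triangles replicate 2, short bars the group means, and numbers in brackets tell probe sets of a gene apart, brightest first. SOCS2 lies lower on both anti-HOPX arrays, SOCS3 and CISH lie higher, and the 2 anti-HOPX values of CISH lie far apart.

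SOCS2 is best known for restraining growth hormone and IGF1 signalling, and it is a STAT5 target in mammals. Its single probe set read 8.35 and 8.13 on the anti-HOPX arrays, against 10.26 and 10.78 on the control arrays. Both anti-HOPX arrays lay below both control arrays, and the gap between forms was several times the distance within either form. The difference was -2.28 (SE 0.22, 95% interval -2.82 to -1.74, limma adjusted p = 0.0059), a 4.85-fold lower level. In size it exceeded 98.4% of all tested probe sets, and 154 probe sets had a larger fall. The call was lost without control replicate 2, where the difference was -2.02 and most calls over the whole array were lost too. The SOCS2 call was also lost when low values were not filtered (limma adjusted p = 0.056). Fewer cells with SOCS2 transcript and less transcript per cell cannot be told apart in such bulk samples.

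SOCS3 is the main inhibitor of signalling through the receptor chain gp130 and is induced by STAT3. Its probe set read 8.92 and 9.03 on the anti-HOPX arrays, against 7.90 and 8.24 on the control arrays, so the forms did not overlap. The difference was 0.90 (SE 0.19, 95% interval 0.44 to 1.37, limma adjusted p = 0.048), a 1.87-fold higher level. This call stood at the edge of the threshold. It was lost with each of the 4 arrays left out in turn, where the difference ran from 0.73 to 1.08. Most calls over the whole array were lost without a control array, but not without an anti-HOPX array. The SOCS3 call was also lost in a fit with no intensity trend (limma adjusted p = 0.060) and with no filter on low values (limma adjusted p = 0.17).

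CISH, the founding member of the family, dampens signalling through STAT5 and is itself a STAT5 target in mammals. Its probe set read 6.67 and 8.47 on the anti-HOPX arrays, against 5.22 and 5.73 on the control arrays. Both anti-HOPX arrays lay above both control arrays, but they lay 1.80 apart, farther than 99.7% of tested probe sets did on these 2 arrays. The mean difference was 2.09 (SE 0.59, 95% interval 0.61 to 3.56), and it did not pass (limma adjusted p = 0.099). Its size turned on which anti-HOPX array was used. Without anti-HOPX replicate 2 the difference was 1.19 (limma adjusted p = 0.063), and without anti-HOPX replicate 1 it was 2.99 and passed (limma adjusted p = 0.0056), the lone anti-HOPX array being assumed to vary like the control arrays.

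SOCS1 blocks JAK kinases directly and is the main brake on interferon signalling. It read 10.37 and 9.64 on the anti-HOPX arrays, against 9.32 and 9.23 on the control arrays. The forms did not overlap, though the lower anti-HOPX array stood closer to the control arrays than to the other anti-HOPX array. The difference was 0.73 (SE 0.26, 95% interval 0.09 to 1.37) and did not pass (limma adjusted p = 0.15). It was 0.36 without anti-HOPX replicate 1. Without anti-HOPX replicate 2 it was 1.10 and passed, in a fit that called more probe sets over the whole array. The high anti-HOPX array was thus replicate 1 for SOCS1 and replicate 2 for CISH.

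**Figure D2:**
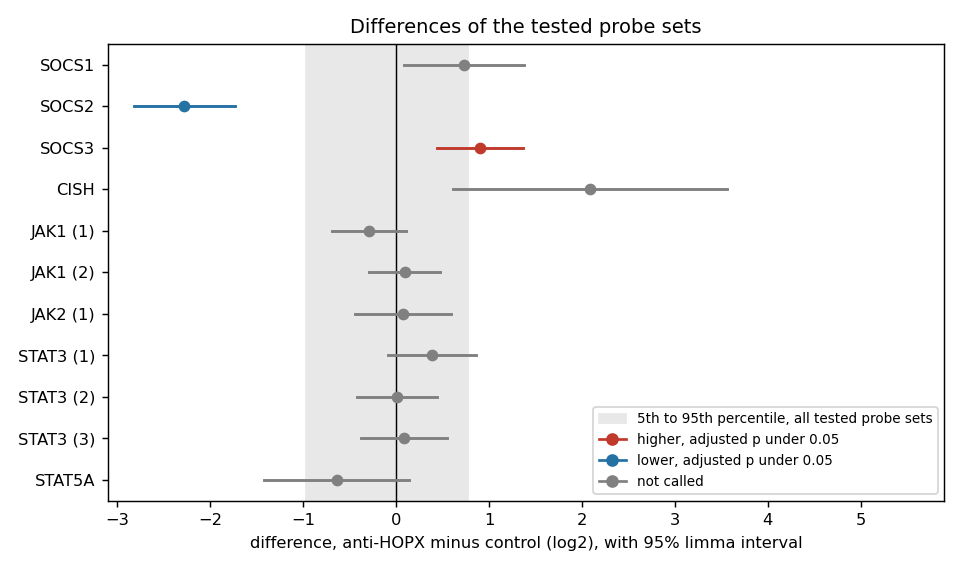
Difference of each tested probe set, anti-HOPX minus control, on the log2 scale (horizontal axis) with its 95% limma interval; the grey band runs from the 5th to the 95th percentile of all tested probe sets, -0.96 to 0.78. SOCS2 lies below the band and SOCS3 and CISH lie above it, and the intervals of JAK1, JAK2, STAT3 and STAT5A include 0.

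JAK1 and JAK2 are tyrosine kinases bound to the inner part of cytokine receptors, JAK1 mainly with gp130, interferon and common gamma chain receptors and JAK2 with growth hormone, erythropoietin and interferon gamma receptors. The brightest JAK1 probe set read 9.35 and 9.13 on the anti-HOPX arrays, against 9.45 and 9.61 on the control arrays. Its difference was -0.29 (SE 0.16, 95% interval -0.69 to 0.11, limma adjusted p = 0.32). The second JAK1 probe set had the other sign, with 9.22 and 9.45 on the anti-HOPX arrays and 9.26 and 9.22 on the control arrays, a difference of 0.09 (95% interval -0.30 to 0.48, limma adjusted p = 0.76). The forms overlapped there, and the sign turned without anti-HOPX replicate 2 (-0.025). The dimmest JAK1 probe set had a mean of 3.16 and was not tested.

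JAK2 was read by 2 probe sets, both dim. The brighter one read 4.49 and 4.25 on the anti-HOPX arrays, against 4.20 and 4.38 on the control arrays, with the forms interleaved. Its difference was 0.08 (SE 0.21, 95% interval -0.44 to 0.59, limma adjusted p = 0.86). The other JAK2 probe set, with a mean of 2.66, was not tested. Values this close to the floor of the scale compress real differences, so the interval for JAK2 is less informative than that for JAK1.

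STAT3 carries signals of the interleukin-6 family and, in mammals, is activated by the Src kinase. Its brightest probe set read 8.41 and 8.73 on the anti-HOPX arrays, against 8.09 and 8.27 on the control arrays. The forms did not overlap, but the difference of 0.39 did not pass (SE 0.19, 95% interval -0.08 to 0.86, limma adjusted p = 0.27). The next STAT3 probe sets by brightness differed by 0.01 (95% interval -0.42 to 0.44, limma adjusted p = 0.98) and 0.09 (95% interval -0.38 to 0.55, limma adjusted p = 0.82). The dimmest had a mean of 3.30 and was not tested. The 6 tested probe sets of JAK1, JAK2 and STAT3 thus ran from -0.29 to 0.39, and none passed.

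STAT5 proteins carry signals of growth hormone, prolactin and the interleukin-2 and interleukin-3 families. The STAT5A probe set read 8.18 and 7.33 on the anti-HOPX arrays, against 8.53 and 8.26 on the control arrays. Both anti-HOPX arrays lay lower, but they lay 0.85 apart, farther than 93.9% of tested probe sets. The difference was -0.64 (SE 0.31, 95% interval -1.42 to 0.14) and did not pass (limma adjusted p = 0.27). It was -0.21 without anti-HOPX replicate 2. Without anti-HOPX replicate 1 it was -1.06 and passed, in a fit that called more probe sets over the whole array. In the gene order of the RefSeq table the gene for STAT5A stands next to that for STAT3 with 1 gene between, and the brightest probe sets of the neighbours had opposite signs, neither of them called.

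**Figure D3:**
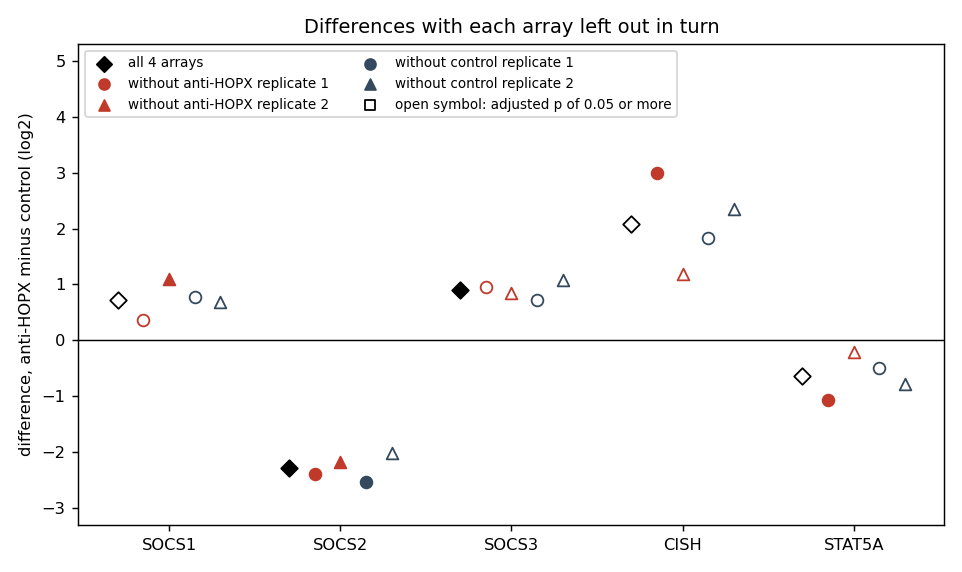
Difference, anti-HOPX minus control, on the log2 scale (vertical axis) for SOCS1, SOCS2, SOCS3, CISH and STAT5A with all 4 arrays and with each array left out; filled symbols have an adjusted p under 0.05, open symbols do not. SOCS2 stays between -2.54 and -2.02, whereas CISH runs from 1.19 to 2.99 with the anti-HOPX array used.

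Not overlapping is a weak criterion with 2 arrays a form. The arrays of the forms did not overlap at 7 of the 10 tested probe sets, 5 higher and 2 lower, but over all tested probe sets 55.9% did not overlap either, 27.9% higher and 28% lower. An exact two-sided permutation test of 2 arrays against 2 cannot go below p = 0.33, and the calls depend on the variance that limma borrows from other probe sets.

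The rest of the pathway was described from 7 lists of genes by role, which hold 157 symbols. Of these, 114 matched a gene on the array, and 59 distinct genes passed the filter. At an adjusted p under 0.05 2 were higher, 2 lower and 55 not called, which is 6.78%, against 8.87% of all genes with a tested probe set. The median difference of the 59 was -0.05, against 0.01 over all tested probe sets.

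None of the ligands could be tested. All 18 cytokines and hormones on the array had means under 4, with single arrays between 2.00 and 4.29, including interleukin-6 (IL6), interferon gamma (IFNG), growth hormone (GH) and prolactin (PRL). The highest was LIF, a ligand of the gp130 family, which read 4.29 and 4.17 on the anti-HOPX arrays and 3.32 and 4.06 on the control arrays.

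Of 33 receptor genes with a probe set, 13 were tested, 1 was higher, 1 lower and 11 did not pass. CRLF3, a cytokine receptor-like protein, read 11.72 and 11.55 on the anti-HOPX arrays, against 10.79 and 10.65 on the control arrays, which is 0.91 higher (SE 0.13, limma adjusted p = 0.020). CSF2RA, the alpha chain of the receptor for granulocyte-macrophage colony-stimulating factor, read 9.75 and 9.39, against 10.44 and 10.69 on the control arrays, with a difference of -0.995 (SE 0.18, limma adjusted p = 0.037). At both genes the forms were well separated. IL13RA2, a decoy receptor for interleukin-13, differed by -0.71 (limma adjusted p = 0.19) and IL5RA by 0.62 (limma adjusted p = 0.15). The other tested IL13RA2 probe set differed by 0.05. The receptors for growth hormone (GHR), prolactin (PRLR) and leptin (LEPR), which signal through JAK2, and the gp130 chain IL6ST lay under the filter, IL6ST at 2.20 and 2.24 on the anti-HOPX arrays and 2.21 and 2.21 on the control arrays. Its partner chains LIFR (-0.18, limma adjusted p = 0.58) and OSMR (0.21, limma adjusted p = 0.50) were measured. The other tested OSMR probe sets disagreed, at 0.55 and -0.38.

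**Figure D4:**
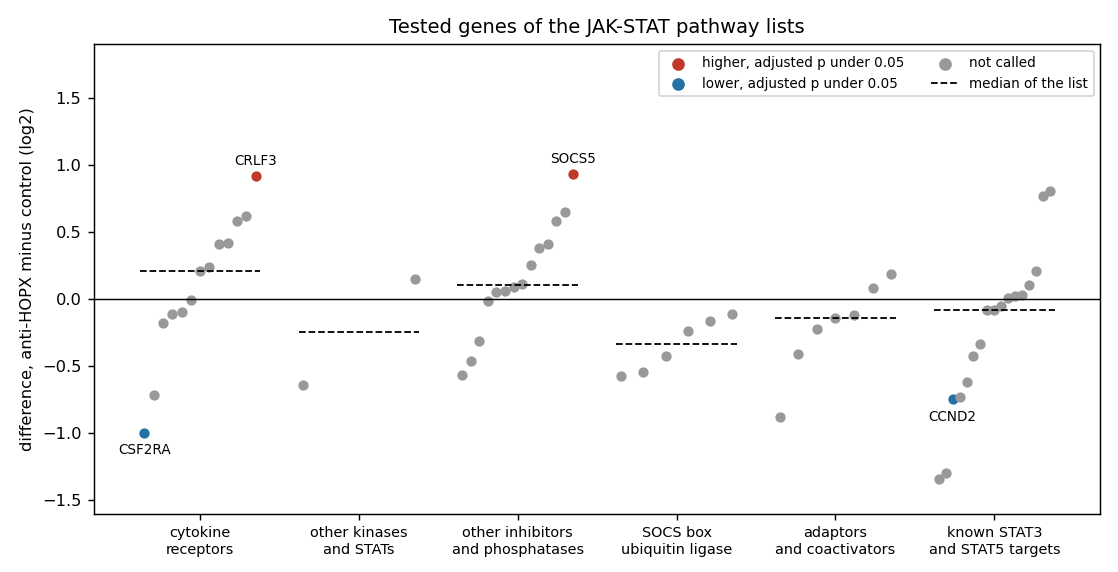
Difference, anti-HOPX minus control, on the log2 scale (vertical axis) for each tested gene of 6 role lists, 1 point per gene in rising order within a list, with a dashed line at the median of the list. CRLF3 and SOCS5 were called higher and CSF2RA and CCND2 lower, and the list medians lie between -0.33 and 0.21.

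Among the other kinases and STATs, the kinases TYK2 and JAK3 lay under the filter. Besides STAT5A, only IRF9, a DNA-binding factor of the interferon response, was tested in this list, with a difference of 0.15 (limma adjusted p = 0.70). Of the 17 other inhibitors and phosphatases with a probe set, 14 were tested and 1 passed. SOCS5, a family member with a long N-terminal region, read 9.79 and 10.12 on the anti-HOPX arrays, against 8.95 and 9.09 on the control arrays, which is 0.93 higher (SE 0.17, limma adjusted p = 0.037). SOCS4 (0.12, limma adjusted p = 0.76) and SOCS6 (0.41, limma adjusted p = 0.40) did not pass. PTPN1, a phosphatase that removes phosphate from JAK2 and TYK2, differed by 0.65 (limma adjusted p = 0.19), and PIAS2, a SUMO ligase that binds STATs, by 0.58 (limma adjusted p = 0.066).

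None of 6 genes listed under the SOCS box ubiquitin ligase passed with limma (3 at an unadjusted p under 0.05), with a median of -0.33 at their brightest probe sets. Over all 14851 tested probe sets 3764 had an unadjusted limma p under 0.05, so such counts among few genes say little. The other tested probe sets of CUL2 disagreed, with a value slightly above 0 and a fall close to that of its brightest probe set. Those of RNF7 disagreed too, with a value slightly above 0 and a larger fall than at its brightest probe set (-0.43). CUL2, a cullin scaffold included in the list beside CUL5, differed by -0.57 (limma adjusted p = 0.23). TCEB1, the elongin C that binds the SOCS box, differed by -0.55 (limma adjusted p = 0.18), and its other tested probe set by -0.16. At the scaffold CUL5, which pairs with SOCS proteins, the difference was -0.11 (limma adjusted p = 0.83). None of 7 tested adaptors and coactivators passed with limma at its brightest probe set (1 at an unadjusted p under 0.05), the endosomal sorting protein HGS (-0.88, limma adjusted p = 0.14) and its partner STAM2 (-0.41, limma adjusted p = 0.36) being farthest from 0.

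Of 27 genes known as targets of STAT3 or STAT5 in mammals with a probe set, 17 were tested, 1 was lower and 16 did not pass, with a median of -0.08. CCND2, cyclin D2, read 9.53 and 9.47 on the anti-HOPX arrays, against 10.38 and 10.12 on the control arrays, and fell by 0.75 (SE 0.15, limma adjusted p = 0.046). The other tested probe sets differed by -0.79 and -1.17 and passed as well (limma adjusted p of 0.040 and 0.034). The kinase PIM3 (-1.34, limma adjusted p = 0.076) and the growth factor VEGFA (-1.29, limma adjusted p = 0.061) had larger differences that did not pass. In the other direction the receptor TNFRSF1A differed by 0.80 (limma adjusted p = 0.091) and the apoptosis inhibitor BIRC5 by 0.76 (limma adjusted p = 0.072). For MYC, BCL2L1, CCND1 and HIF1A, also in this list, the differences were -0.08, 0.02, 0.11 and 0.01. CRLF3, CSF2RA, SOCS5 and CCND2 all lost their call without control replicate 1 and without control replicate 2. Most calls over the whole array were lost without either control array, so these losses are not particular to these genes. CCND2 also lost its call without anti-HOPX replicate 2, where its difference was -0.71. IL13RA2 (-1.08), CUL2 (-0.92), PIM3 (-1.77) and VEGFA (-1.61) passed without anti-HOPX replicate 2, and HGS (-1.26) without anti-HOPX replicate 1. More probe sets over the whole array were called in those fits too, so these gains are not particular to these genes.

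For the 2 members that passed, the genes with the most similar pattern were found by the Euclidean distance over the 4 arrays, after each gene was centred on its own mean, among 7690 other genes. Nearest to SOCS2 were RARB, a retinoic acid receptor (0.18), LURAP1 (0.20) and FAM19A5 (0.27). RARB read 3.45 and 3.17 on the anti-HOPX arrays, against 5.39 and 5.67 on the control arrays, and FAM19A5 read 3.18 and 2.94, against 5.41 and 5.65 on the control arrays. Both lay under 4 on the anti-HOPX arrays, where a difference is only a bound, so their distances and their order are uncertain. Nearest to SOCS3 were the transcription factor EBF1 (0.089), the zinc finger protein RLF (0.090) and the actin-associated protein PALLD (0.12). With 4 arrays this likeness holds little more than a difference of similar size.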

How the data were processed

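Expression was measured on 4 Affymetrix chicken arrays, 2 per form, grouped by the sample titles. The table deposited by the authors holds 1 log2 value for each array at each of 38535 probe sets. The submitters' processing notes name GCRMA and Partek 6.4, with no role given. GCRMA models probe background by sequence and draws dim probe sets towards a floor. Affymetrix control probe sets (96) were dropped, and the 14851 others with a mean of at least 4 over the 4 arrays were tested. The fit used limma 3.58.1 under R 4.3.3 (eBayes with an intensity trend, 2 residual and 3.54 prior degrees of freedom, no replicate block), with Benjamini-Hochberg adjustment over all tested probe sets. A call is an adjusted p under 0.05, two-sided. Intervals are limma's 95% intervals without adjustment.

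Platform symbols were updated through gene identifiers of the RefSeq table for GRCg7b, which also gave the gene order. A gene is represented by its brightest probe set. All probe sets of the members are named. From each role list the rule names, by size of difference, at most 4 genes past the threshold and at most 2 others. Further pathway genes in the text (IL6, IFNG, GH, PRL, LIF, GHR, PRLR, LEPR, IL6ST, LIFR, OSMR, TYK2, JAK3, SOCS4, SOCS6, CUL5, MYC, BCL2L1, CCND1, HIF1A, TNFRSF1A and BIRC5) were chosen after their values were seen. The members and lists were chosen with earlier results of these data known. Alternatives were other filters, variance models, normalisations and thresholds, a replicate block, and leaving out each array. The procedure was run on simulated data with independent normal noise. Its only set requirement concerned changes larger than any member difference, so it says little about calls of the size seen here. The design gives no batch.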

Additional observations from a re-analysis of the deposited data

How the results depend on the processing

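SOCS2, SOCS3, CISH and SOCS1 kept their direction under every alternative that gave them a value, but most alternatives could not turn it. Other filters, variance models, thresholds and the replicate block leave the differences themselves unchanged. The arrays of the forms did not overlap at these genes, so leaving out 1 array cannot turn the sign. Centring each array moved SOCS1 from 0.73 to 0.76, and quantile normalisation moved it to 0.72. With no filter on low values, 0 members were higher and 0 lower with limma (3 of 13 probe sets at an unadjusted p under 0.05). Over all 38439 probe sets in that limma fit, 4937 had an unadjusted p under 0.05, and 80 were called higher and 194 lower. SOCS2 (limma adjusted p = 0.056, difference -2.28) and SOCS3 (0.90) missed the threshold, and 0 and 0 pathway genes were called. Without an intensity trend SOCS3 (0.90) was lost, leaving 0 members higher and 1 lower, SOCS2. In that fit 1 pathway gene was higher and 0 lower, with 343 probe sets higher and 536 lower in all. At an adjusted p under 0.01, 0 members were higher and 1 lower, SOCS2. At that threshold 77 probe sets in all were higher and 170 lower, and no pathway gene was called (0 and 0). With a 2-fold minimum, 0 members were higher and 1 lower, again SOCS2. Under that minimum 0 pathway genes were called either way, with 315 probe sets higher and 499 lower in all. Without probe sets ending in _x_at, _s_at or _a_at, SOCS2 has no probe set, so 0 members were lower. There 1 pathway gene was higher and 1 lower, with 350 probe sets higher and 507 lower in all. With each array centred on its median 2 pathway genes were higher and 1 lower, with 504 probe sets higher and 625 lower in all. With a mean of at least 6, 2 pathway genes were higher and 4 lower, with 456 probe sets higher and 625 lower in all. The labels share replicate numbers between forms but do not say what they pair; deviations of arrays with the same number correlated at 0.25. With the replicate number as a block, 3 members were higher and 1 lower, SOCS1 (0.73) and CISH (2.09) now among the higher. In this fit 1149 probe sets in all were higher and 1549 lower, and 6 pathway genes were higher and 9 lower. The block leaves fewer residual degrees of freedom than the main fit, and these calls lean on variance borrowed from other probe sets. With each array left out in turn, members called higher ran from 0 to 1 and lower from 0 to 1, all probe sets from 34 to 728 higher and from 108 to 1006 lower, and pathway genes called higher from 0 to 3 and lower from 0 to 7. Over these fits SOCS2 ran from -2.54 to -2.02, SOCS3 from 0.73 to 1.08, CISH from 1.19 to 2.99, SOCS1 from 0.36 to 1.10 and STAT5A from -1.06 to -0.21. JAK2 ran up to 0.20, the second JAK1 probe set up to 0.21 and the second STAT3 probe set up to 0.043, and JAK2 turned sign without anti-HOPX replicate 1 (-0.046) and without control replicate 1 (-0.0085), the second JAK1 probe set without anti-HOPX replicate 2 (-0.025), and the second STAT3 probe set without anti-HOPX replicate 2 (-0.010) and without control replicate 2 (-0.021). The cause of these changes was not tested. Dim probe sets, those of JAK2 above all, limit what can be seen.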

Other observations

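Several receptors and targets had more than 1 probe set, and these genes were picked after their values were seen. IFNGR2, a chain of the interferon gamma receptor, read 11.73 and 11.68 on the anti-HOPX arrays and 11.26 and 11.32 on the control arrays. All 3 of its tested probe sets were higher in anti-HOPX cells with no overlap between forms, by 0.42, 0.43 and 0.50, but none passed (limma adjusted p of 0.083, 0.16 and 0.16), and 27.9% of all tested probe sets were higher with no overlap. The probe sets of IFNAR1, a chain of the type I interferon receptor, were higher by 0.41 and 0.42 and missed the threshold (limma adjusted p = 0.20 and 0.25). MCL1, an inhibitor of apoptosis and a STAT3 target in mammals, lay under 0 at all 3 tested probe sets, with differences of -0.62, -0.61 and -1.01, and none passed (limma adjusted p of 0.080, 0.17 and 0.052). GRB2, an adaptor, disagreed between probe sets: its dimmest was at -0.69 and passed (limma adjusted p = 0.0496), and the others differed by 0.08 and -0.04.

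The neighbours of these genes in the RefSeq gene order were looked up after the data were seen, taking the 2 nearest tested genes on each side. Of 28 distinct neighbours 1 was higher, 1 lower and 26 not called, a share close to the 8.87% called among all genes, so nothing is read from it about the neighbourhood. PLXNC1, a semaphorin receptor near SOCS2, read 5.20 and 3.78 on the anti-HOPX arrays and 9.61 and 9.64 on the control arrays (limma adjusted p = 0.0048). CRADD (-0.52), which lies between them, and MRPL42 (-0.24) and UBE2N (-0.38) on the other side of SOCS2 did not pass. RIC1, near JAK2, was higher by 0.78 (limma adjusted p = 0.035). HEMK1, next to CISH, had a difference of -1.17, against 2.09 for CISH, and did not pass (limma adjusted p = 0.051).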
